A study of Cricetulus griseus with 16 samples.

Results

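The nuclear-encoded subunits of the oxidative phosphorylation (OXPHOS) complexes were followed in Chinese hamster ovary (CHO) cells through graded heat. They were taken from the gene counts by name, as every gene whose symbol begins like a subunit of complex I (Nduf followed by a, b, c, s or v and a digit), complex III (Uqcr), complex IV (Cox followed by 4 to 8) or complex V (Atp5), or is one of Sdha to Sdhd of complex II. This gave 70 of the 20824 genes listed, with 32 in complex I, 4 in complex II, 6 in complex III, 16 in complex IV and 12 in complex V. Ndufa4, whose symbol is that of a complex I gene, was placed in complex IV. RNA was sequenced in bulk from 16 cultures of the CHO line (ATCC CCL-61, an established hamster line), all plated one day earlier and grown in the same serum-containing medium. One group stayed at 37 °C with no heat treatment, a pair of groups was held at 40 °C (one for 1 h, the other for 6 h), and the last was held at 42.5 °C (1 h). Each group had 4 cultures (replicates A to D). There was no genetic change in any group, and all cultures came from 1 line, so the spread between replicates is that between cultures of this line only.

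OXPHOS is carried out in the inner mitochondrial membrane. Complexes I and II pass electrons from NADH and succinate to ubiquinone, complex III passes them on to cytochrome c and complex IV passes them to oxygen. Complexes I, III and IV pump protons, and complex V (ATP synthase) uses the proton gradient to make ATP. Most subunits are made from nuclear genes and imported, whereas a small set of hydrophobic core subunits of complexes I, III, IV and V is encoded by mitochondrial DNA, so each of these complexes draws on both genomes. Complex II is encoded in the nucleus alone.

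Total counts per library were between 10504192 and 14668365, and in the 15 libraries used the 70 subunits took up 0.942% to 1.02% of them. Replicate D at 37 °C was left out of the main comparisons, as the study did, and stood apart here too. In that library the subunits took up 1.25% of the counts, and 60 of 62 subunits lay above the mean of replicates A to C, with a median log2 difference of 0.54 and a range from -0.06 (Sdhd) to 1.04 (Atp5j). At least 1.5-fold from that mean lay 23 of the 62 subunits (37.1%), against 17.6% of all genes tested, while in replicates A, B and C, each set against the mean of the others, 0 of 62 did. The counts of subunits called against 37 °C are therefore given with and without this library, and those between heated groups do not use it. The stress-response genes Hspb1, Dnajb1 and Hsph1 rose at least 1.5-fold against 37 °C (replicates A to C) in each of the 3 heated groups. In 37 °C replicate D Hspb1 was at 103 CPM, against 49.5 to 56.7 in replicates A to C. That is within its range after 1 h at 40 °C (87.9 to 149.8). Dnajb1 and Hsph1, at 32.6 and 340 CPM in replicate D, lay below all heated cultures. Of the marker genes for the line, Vim, Lamb1 and Col4a1 were present. Ptprc (blood) had 1 count over all libraries and Snap25 (neuron) 0, Alb (liver) had at most 4 counts in a library, and Myh6 (cardiac muscle) had 3 to 7 counts in the libraries at 42.5 °C and none elsewhere. Actc1 (muscle actin) had 6 to 21 counts a library and was called in none of the comparisons with 37 °C.

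Levels are given as CPM (read counts scaled to library size, with TMM, edgeR's correction for library composition). CPM is not corrected for transcript length, so levels are compared between libraries and not between genes, and in bulk RNA a change in RNA per cell cannot be told apart from one in the share of reads. A gene was called higher or lower at an adjusted p under 0.05 (edgeR's quasi-likelihood test, Benjamini-Hochberg over all genes tested), and a differentially expressed gene (DEG) when it also differed by at least 1.5-fold. Adjusted p values without another name come from this test, and log2 fold changes are given ± SE. Groups that do not overlap are common over all genes. At 42.5 °C against 37 °C this held for 34 of 62 tested subunits and 4811 of 10470 genes. After 6 h at 40 °C against 37 °C it held for 8 of 62 and 3802 of 10499. For 6 h against 1 h at 40 °C it held for 7 of 62 and 2219 of 10439.

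Of the 70 subunits, 62 passed the filter on low counts in every comparison. The remaining 8 all belong to complex IV as grouped here and are tissue-restricted isoforms or paralogues. No count in any library was listed for the muscle isoforms Cox6a2 and Cox8b, the testis isoform Cox6b2 and Cox8c. Cox4i2, the lung and hypoxia-linked isoform of subunit 4, and Cox7b2 had 1 count each in 1 library, and Ndufa4l2, the hypoxia-induced paralogue of Ndufa4, had 0 to 2 counts a library. Cox7a1, the heart and muscle isoform, had 1 to 11 counts a library in the 16 libraries, or 0.0883 to 0.979 CPM, and was not tested. The widely expressed counterparts Cox4i1, Cox6a1, Cox6b1, Cox8a and Ndufa4 all passed the filter. At these depths a count of 0 allows up to 3 counts, which is 0.204 to 0.286 CPM depending on the library, so lower levels were not detectable. Those limits cover counting error only. The subunits Ndufa2, Ndufb1, Ndufb4, Ndufs6, Uqcrb, Uqcrh, Cox5b, Cox7a2, Cox7a2l, Cox7b, Atp5g1, Atp5g2, Atp5h and Atp5l were not found under these names and were not analysed here.

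Against 37 °C, the subunits were higher mainly at 42.5 °C, and by small amounts. At 40 °C for 1 h, 0 of 62 were called higher and 0 lower, where 1.07% of all genes were higher and 0.572% lower, and 0.334% were DEGs either way. Their median log2 fold change was 0.046 (all genes 0), from -0.08 to 0.31, and 12 of 62 (19.4%) had an unadjusted p under 0.05, as did 14.8% of all genes. By DESeq2's Wald test the count was also 0 in both directions. With the replicate letter as a block 2 subunits were called higher in this comparison, Cox5a (log2 fold change 0.11, adjusted p = 0.01661) and Atp5j (0.16, adjusted p = 0.04308), and none lower, a share of 3.23% where that fit called 3.63% of all genes higher and 2.41% lower. At 40 °C for 6 h, 4 of 62 were higher and 2 lower, against a background of 14.7% higher and 14.8% lower, and none was a DEG (background 3.11%). The median was -0.006, from -0.34 to 0.33. At 42.5 °C for 1 h, 29 of 62 (46.8%) were higher and 3 (4.84%) lower, where 20.8% of all genes were higher and 22.3% lower. One subunit was a DEG, against 7.51% of all genes. The median was 0.11, a fold change of 1.08, with all genes at -0.002, and 51 of 62 fold changes were positive.

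These counts changed with the controls and with the scaling, and so did those of all genes. With all 4 control libraries the subunits called at 42.5 °C went from 29 higher and 3 lower to 0 higher and 1 lower, with a median of -0.015, where 6.82% of all genes were higher and 11.4% lower. Those called at 40 °C for 6 h went to 0 higher and 1 lower, with a median of -0.15, where 5.42% of all genes were higher and 5.32% lower. None of the 62 tested nuclear-encoded subunits was called higher against 37 °C with all 4 controls. Under scaling by total counts alone, which lowered the median of all genes at 42.5 °C to -0.075, 17 subunits (27.4%) were higher and 8 (12.9%) lower, with a median of 0.034, where 11.5% of all genes were higher and 31.4% lower. Without 37 °C replicate C, 6 (9.68%) were lower at 42.5 °C, where 20.3% of all genes were lower.

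**Figure D1:**
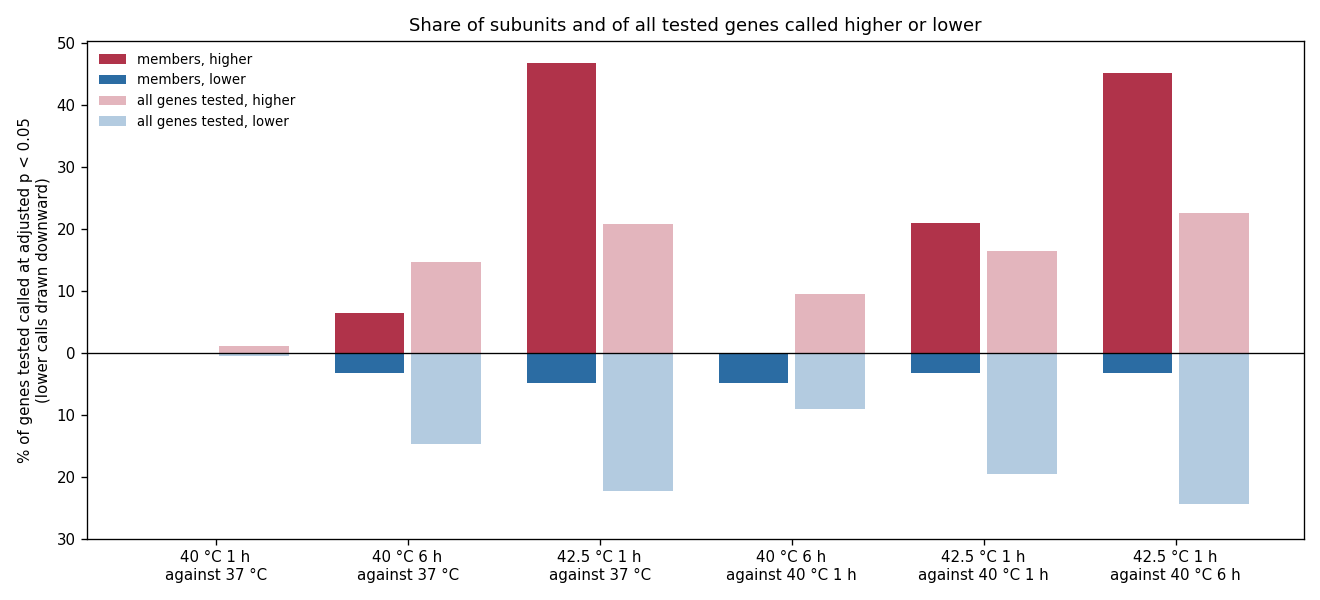
Share (%) of the 62 tested subunits and of all genes tested that were called higher (drawn upward) or lower (drawn downward) at adjusted p < 0.05 in each of the 6 comparisons, with 37 °C replicate D left out. At 42.5 °C against 37 °C and against 40 °C for 6 h, 46.8% and 45.2% of the subunits were higher against 20.8% and 22.5% of all genes, and 3.23% to 4.84% were lower against 22.3% and 24.5%.

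Summed over the 70 subunits, the level was 9561 ± 142 CPM at 37 °C (SD, n = 3), 9848 ± 157 after 1 h at 40 °C, 9555 ± 198 after 6 h at 40 °C and 10400 ± 56.3 at 42.5 °C (n = 4 each). The 4 cultures at 42.5 °C lay between 10348 and 10459 CPM, above every other library used, of which the highest was 10053 CPM at 40 °C for 1 h. They lay below 37 °C replicate D at 12865 CPM. The ratio of 42.5 °C to 37 °C was 1.09 for the sum over all subunits, 1.08 in complex I, 1.05 in complex II, 1.064 in complex III, 1.12 in complex IV and 1.1 in complex V. Under scaling by total counts alone the sum was 9792 at 37 °C and 10080 at 42.5 °C. The sum weighs abundant transcripts most and was not tested.

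**Figure D2:**
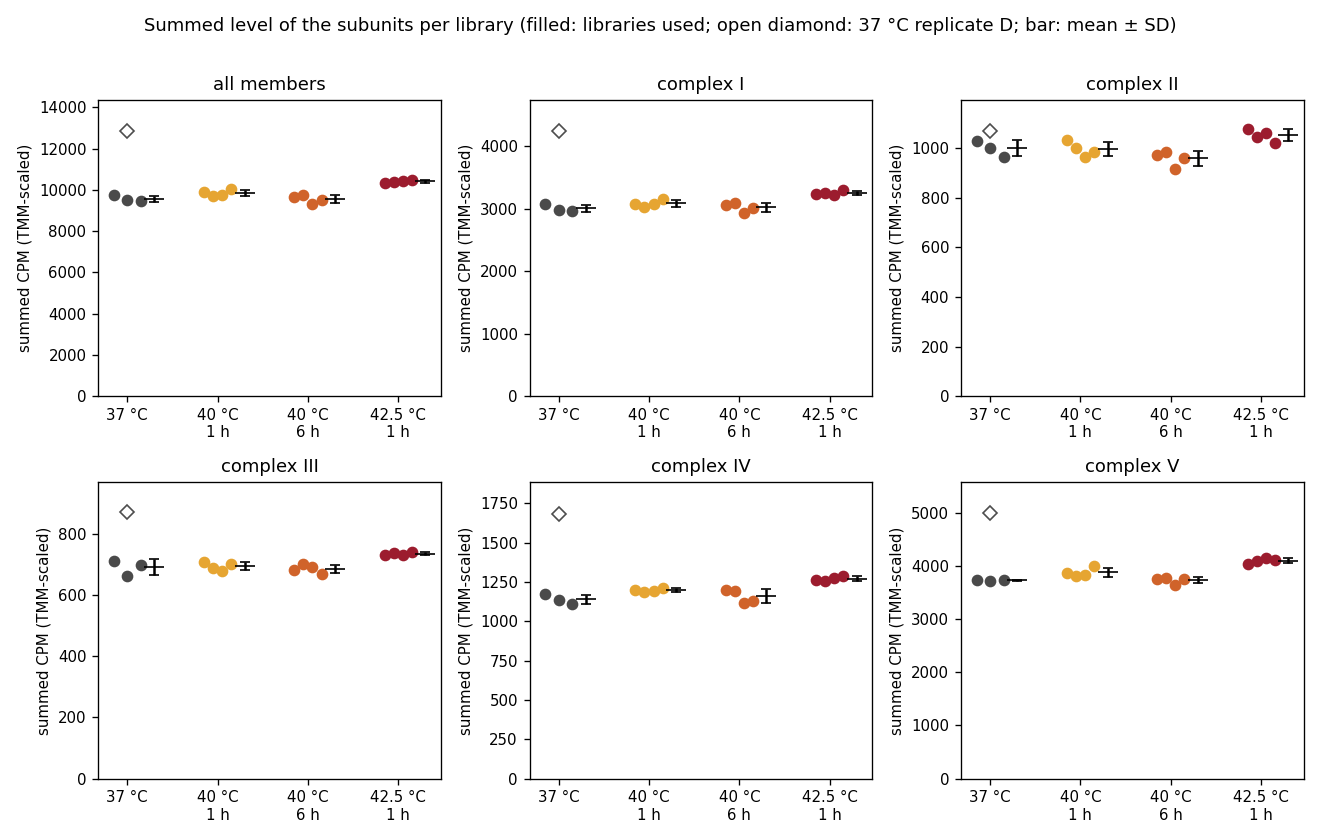
Summed level (CPM, TMM-scaled, axis from 0) of all subunits and of each complex in every library, with filled points for the libraries used, bars for their mean ± SD and an open diamond for 37 °C replicate D. For all subunits the 42.5 °C cultures sit between 10348 and 10459 CPM, above the 37 °C replicates A to C (9470 to 9725) and below the diamond at 12865.

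Complex I was the largest group, with 7 core subunits that hold the flavin and iron-sulfur clusters or line the path to ubiquinone and 25 accessory subunits. At 42.5 °C against 37 °C 12 of 32 (37.5%) were higher and 2 (6.25%) lower, beside 20.8% and 22.3% of all genes. The median log2 fold change was 0.11. Among the core subunits 2 of 7 were higher, Ndufv2 (0.20 ± 0.05, adjusted p = 0.00483) and Ndufs3 (0.19 ± 0.06, adjusted p = 0.01446), and none was lower. Ndufs1, the largest iron-sulfur subunit, had a log2 fold change of 0.09 ± 0.04 (adjusted p = 0.09826) and Ndufv1, which binds the flavin and NADH, -0.06 ± 0.04 (adjusted p = 0.2309). Their 95% intervals reached from 0 to 0.18 and from -0.15 to 0.02.

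NDUFA1, a small membrane-arm subunit (identifier ENSCGRG00001004710), rose most in this complex. Its level was 17.3, 15.97 and 18.1 CPM in 37 °C replicates A to C, between 16.2 and 23.8 after 1 h at 40 °C, between 17.7 and 21.9 after 6 h at 40 °C, and 25.6, 25.8, 27.3 and 24.0 at 42.5 °C. All 4 cultures at 42.5 °C lay above every other library used, and 37 °C replicate D lay higher still, at 33.4 CPM. Its log2 fold change at 42.5 °C against 37 °C was 0.58 ± 0.08 (fold 1.49, adjusted p = 4.266e-05), just under the 1.5-fold threshold, and it passed that threshold without 37 °C replicate C, without 42.5 °C replicate D and with the replicate block. With all 4 controls it was 0.29 (adjusted p = 0.3499). At 40 °C it was 0.23 ± 0.11 after 1 h (adjusted p = 0.3583) and 0.21 ± 0.10 after 6 h (adjusted p = 0.1006).

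Ndufb9, a membrane-arm accessory subunit with a LYR motif (ENSCGRG00001000279), was higher at both 6 h and 42.5 °C. It was at 206, 199 and 214 CPM in the 3 controls, from 230 to 244 after 6 h at 40 °C and 258, 259, 250 and 309 at 42.5 °C. Both groups lay wholly above the 3 controls, with the highest value in 42.5 °C replicate D, and 37 °C replicate D was at 401 CPM. The log2 fold change was 0.20 ± 0.05 after 6 h at 40 °C (adjusted p = 0.003856) and 0.38 ± 0.06 at 42.5 °C (adjusted p = 0.0001588). With all 4 controls these were -0.10 and 0.09 (adjusted p = 0.7674 and 0.8049), and in 1 fit over all groups the 6 h call was lost (adjusted p = 0.05514). At 40 °C for 1 h replicate B, at 201 CPM, lay within the range of the controls, and A, C and D, at 218, 251 and 272 CPM, lay above them (0.19 ± 0.08 in the same terms, not called).

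The other accessory subunits called higher at 42.5 °C were Ndufs4, Ndufb5, Ndufc1, Ndufs5, Ndufa12, Ndufa10, Ndufa11 and Ndufa5, with log2 fold changes from 0.31 (Ndufs4, a subunit phosphorylated by cAMP-dependent kinase and lost in some forms of Leigh syndrome) down to 0.16 (Ndufa5). At 40 °C for 6 h, Ndufa7 and Ndufv2 were higher, with log2 fold changes of 0.24 ± 0.07 (adjusted p = 0.01612) and 0.18 ± 0.05 (adjusted p = 0.01843). Ndufa7 had 46.2, 46.7 and 40.8 CPM in the 3 controls and 49.0 to 57.6 after 6 h at 40 °C. Those groups did not overlap. Ndufa7 was no longer called without 37 °C replicate C and Ndufv2 without replicate B or C, and with all 4 controls neither was (0.04 and -0.002).

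A few complex I subunits went the other way. Ndufc2, an accessory subunit of the membrane arm (ENSCGRG00001017125), was at 107, 106 and 102 CPM in 37 °C replicates A to C, from 91.9 to 104 after 1 h at 40 °C, from 92.5 to 104 after 6 h at 40 °C, and 88.0, 82.9, 82.5 and 79.0 at 42.5 °C. Every culture at 42.5 °C lay below all the other libraries, 37 °C replicate D (133 CPM) included. It fell by 0.35 ± 0.05 on the log2 scale (adjusted p = 3.462e-05), the largest fall among the 62 subunits in this comparison. At 42.5 °C against 37 °C Ndufc2 was the 1 subunit still called lower with all 4 controls. NDUFB11, another membrane-arm subunit, fell by 0.13 ± 0.05 on the log2 scale (adjusted p = 0.03632), from 84.8, 87.8 and 84.3 CPM to between 75.0 and 80.6, but it was not called by DESeq2 (adjusted p = 0.09699), without the filter, with all 4 controls or when any of 5 libraries (37 °C replicates A and B, 42.5 °C replicates B, C and D) was left out.

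Ndufb7, a subunit with a twin CHCH domain on the intermembrane face (ENSCGRG00001019688), was lowest at 40 °C for 6 h. Its level was 66.3, 59.5 and 56.9 CPM in the 3 controls, 54.0 to 61.2 after 1 h at 40 °C, 49.95, 50.1, 48.2 and 45.6 after 6 h at 40 °C and 53.1 to 56.9 at 42.5 °C. The 6 h cultures lay below every other library. Against 37 °C this was a log2 fold change of -0.34 ± 0.06 (adjusted p = 0.0009021), beside -0.15 ± 0.06 at 42.5 °C (adjusted p = 0.05119), which was called under upper-quartile and total-count scaling, under both other filters and with the replicate block. The call at 6 h was kept in all 16 alternatives, that with all 4 controls included. Over these the log2 fold change was -0.471 to -0.266 and the adjusted p at most 0.03259.

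**Figure D3:**
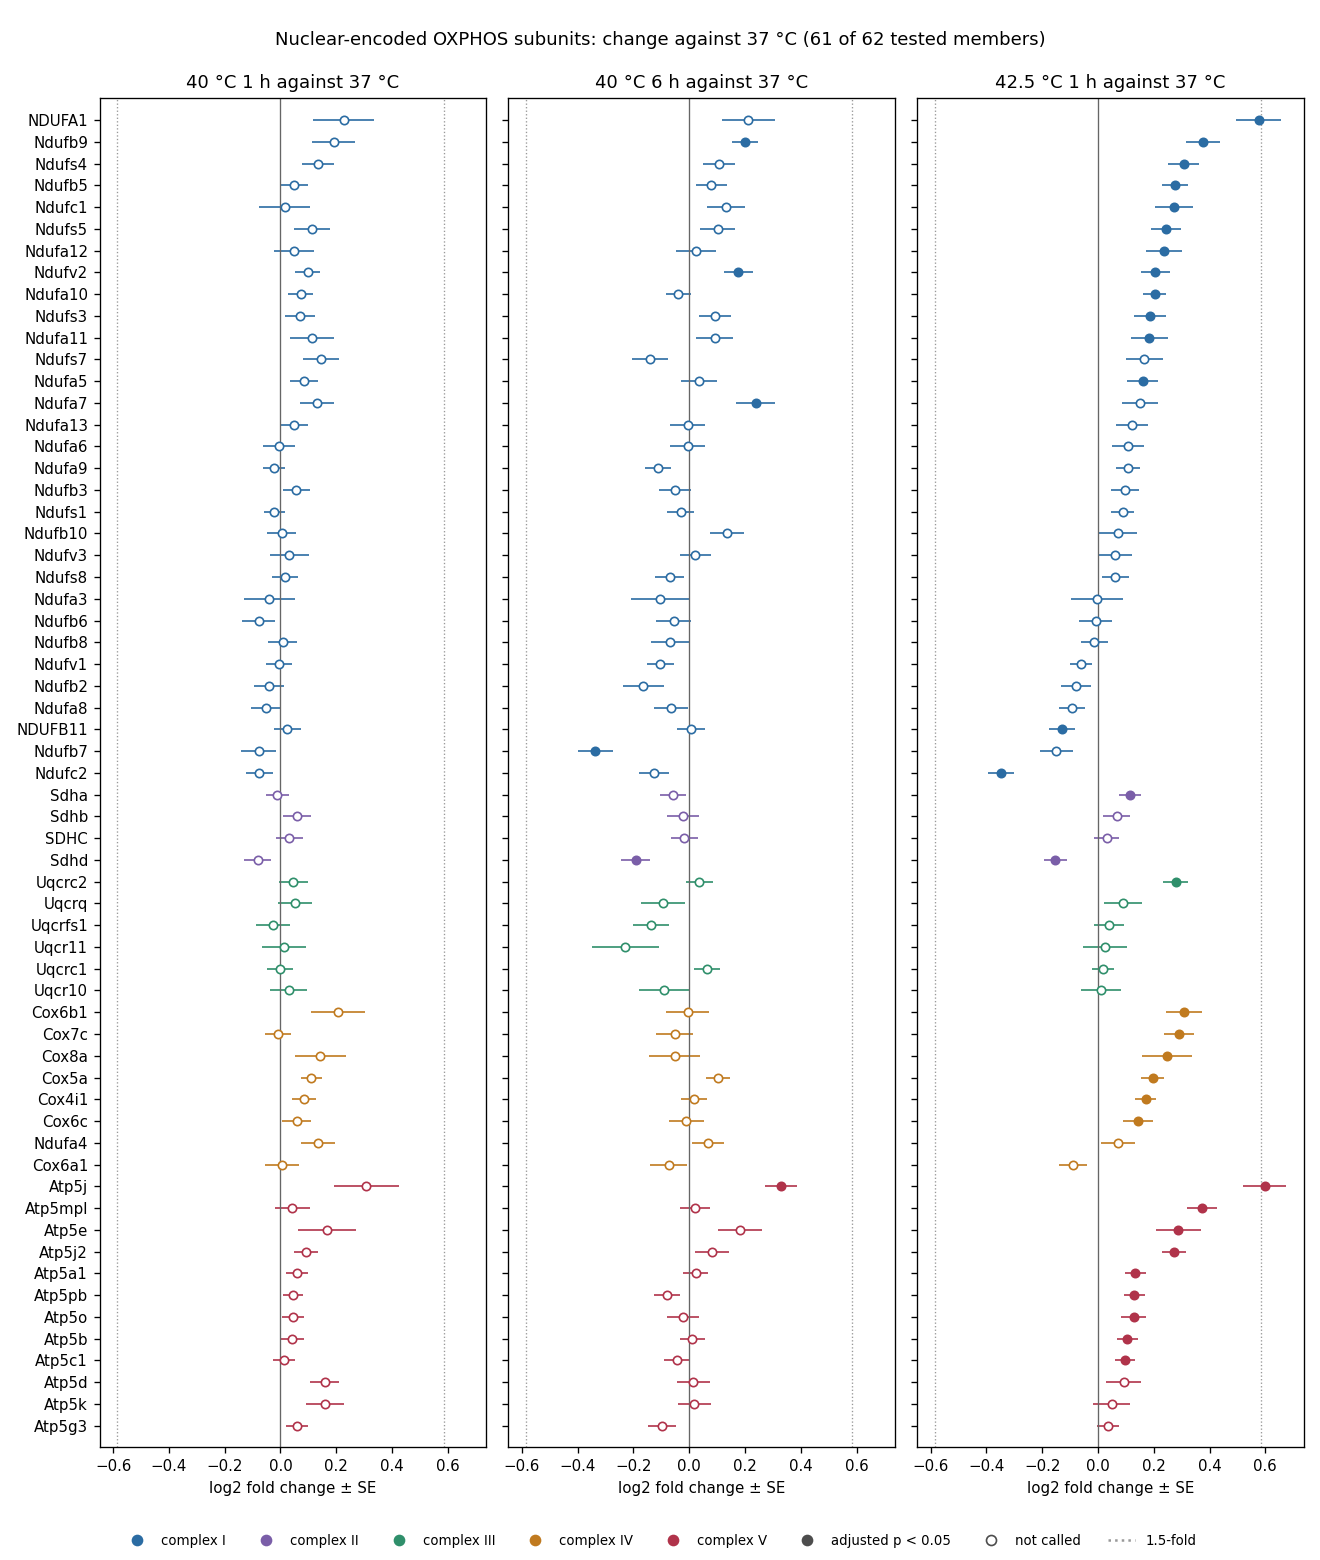
Log2 fold change ± SE of 61 of the 62 tested subunits against 37 °C (replicates A to C) in the cultures held at 40 °C (1 h in the left panel, 6 h in the middle) and at 42.5 °C (1 h, right), coloured by complex, with filled points for adjusted p < 0.05 and dotted lines at 1.5-fold. No point is filled in the first panel, 6 are in the second and 32 in the third, where Atp5j alone lies past the 1.5-fold line and Ndufc2, Sdhd and NDUFB11 are the filled points below 0.

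Complex II (succinate dehydrogenase) had its 4 subunits split. At 42.5 °C Sdha, the flavin-bearing catalytic subunit, was higher, with a log2 fold change of 0.12 ± 0.04 (adjusted p = 0.02602). Its level was 629, 602 and 582 CPM in the 3 controls and 676, 653, 668 and 635 at 42.5 °C. The groups did not overlap, though the lowest at 42.5 °C (635) lay close to the highest control (629). The call was lost under total-count scaling, with all 4 controls and without any of 4 libraries (37 °C replicates B and C, 42.5 °C replicates A and C). Sdhd, a membrane anchor of the complex (ENSCGRG00001022631), fell in both the 6 h and the 42.5 °C cultures. It was at 131, 130 and 132 CPM in the 3 controls, 132, 127, 119 and 116 after 1 h at 40 °C, 126, 113, 108 and 113 after 6 h at 40 °C and 123, 119, 118 and 114 at 42.5 °C. The controls were above all libraries of the latter groups. Sdhd had a log2 fold change of -0.19 ± 0.05 after 6 h at 40 °C (adjusted p = 0.01179) and -0.15 ± 0.04 at 42.5 °C (adjusted p = 0.007662). With all 4 controls the values were -0.18 and -0.13 (adjusted p = 0.106 and 0.1365), and without 37 °C replicate A the call at 6 h was lost (-0.185, adjusted p = 0.05244). Sdhd was 1 of the 2 subunits that were not higher in 37 °C replicate D (125 CPM), together with Ndufs1. Sdhb, the iron-sulfur subunit, and SDHC, the other anchor, had log2 fold changes at 42.5 °C of 0.07 ± 0.05 (adjusted p = 0.271) and 0.03 ± 0.05 (adjusted p = 0.6071).

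Complex III (the cytochrome bc1 complex) had 1 of 6 subunits (16.7%) higher at 42.5 °C and none lower, beside 20.8% and 22.3% of all genes. That subunit was Uqcrc2, one of the pair of large matrix-side core proteins, at 134, 131 and 142 CPM in the 3 controls and 156, 165, 168 and 172 at 42.5 °C, with a log2 fold change of 0.28 ± 0.05 (adjusted p = 0.0001627). All 4 heated cultures lay above these 3 controls, and 37 °C replicate D, at 168.5 CPM, lay within the range of the heated cultures. With all 4 controls Uqcrc2 was not called higher. Its partner core protein Uqcrc1 had 303, 283 and 285 CPM in the controls and 290 to 303 at 42.5 °C, overlapping, and a log2 fold change of 0.02 ± 0.04 (95% interval from -0.06 to 0.10, adjusted p = 0.7235). The catalytic Rieske iron-sulfur protein Uqcrfs1 had 0.04 ± 0.06 (adjusted p = 0.5747) at 42.5 °C and -0.14 ± 0.06 (adjusted p = 0.1226) at 40 °C for 6 h. Uqcrc2 was singled out after its values were seen, as were the other called subunits given here beyond the largest changes and the core and isoform genes.

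Complex IV (cytochrome c oxidase) had 6 of its 8 tested subunits (75%) higher at 42.5 °C and none lower, beside 20.8% and 22.3% of all genes. Its median log2 fold change was 0.18, the highest median of the 5 complexes in this comparison. At 40 °C 0 of 8 were called at either time. Cox4i1, the ubiquitous form of the regulatory subunit 4, had 272, 259 and 265 CPM in the controls and 296, 299, 292 and 314 at 42.5 °C. Cox5a, a matrix-side subunit, had 337, 342 and 340 CPM in the controls, 355 to 373 after 1 h at 40 °C, 359 to 375 after 6 h at 40 °C and 371, 384, 397 and 413 at 42.5 °C. In both genes the groups at 37 °C and 42.5 °C did not overlap, and for Cox5a every heated culture of any group lay above the 3 controls. The log2 fold changes at 42.5 °C were 0.17 ± 0.04 for Cox4i1 (adjusted p = 0.002328) and 0.20 ± 0.04 for Cox5a (adjusted p = 0.001321). For Cox5a they were 0.11 ± 0.04 after 1 h at 40 °C (adjusted p = 0.1758) and 0.10 ± 0.04 after 6 h at 40 °C (adjusted p = 0.07459), neither called.

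The other 4 called in complex IV were Cox6b1, on the intermembrane side where cytochrome c docks, Cox7c, Cox8a and Cox6c. Cox6b1 had 30.4, 28.1 and 29.6 CPM in the controls and 34.9, 37.6, 35.3 and 38.3 at 42.5 °C, with no overlap and a log2 fold change of 0.31 ± 0.07 (adjusted p = 0.001327). Cox7c, Cox8a and Cox6c had log2 fold changes of 0.29, 0.25 and 0.14. Cox6a1 and Ndufa4 were not called, with -0.09 ± 0.05 (adjusted p = 0.1681) and 0.07 ± 0.06 (adjusted p = 0.3669). With all 4 controls Cox6b1, Cox5a and Cox4i1 had 0.04, 0.04 and 0.02 (adjusted p = 0.9196, 0.84 and 0.9171), and in 37 °C replicate D they were at 55.8, 508 and 393 CPM, above every other library.

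Complex V (ATP synthase) had 9 of 12 subunits (75%) higher at 42.5 °C and none lower, beside 20.8% and 22.3% of all genes. Its median log2 fold change was 0.13, and all 12 values were positive. By part of the enzyme, 4 of 5 subunits of the catalytic F1 head, 3 of 3 of the peripheral stalk that holds the head still and 2 of 4 of the membrane-bound Fo part were higher. Atp5b, the catalytic beta subunit, had 1436, 1419 and 1463 CPM in the controls, 1437 to 1529 after 1 h at 40 °C, 1417 to 1477 after 6 h at 40 °C and 1527, 1516, 1576 and 1607 at 42.5 °C. Its 42.5 °C cultures lay above the controls, and the log2 fold change was 0.11 ± 0.04 (adjusted p = 0.03092). Atp5a1, the alpha subunit that pairs with it, had 546, 531.7 and 537 CPM in the controls and 573 to 616 at 42.5 °C, with 0.13 ± 0.04 (adjusted p = 0.008894). Both calls were lost under total-count scaling and with all 4 controls, and the call of Atp5b also when any of 4 libraries was left out (37 °C replicates A and B, 42.5 °C replicates C and D).

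Atp5j, coupling factor 6 of the peripheral stalk (ENSCGRG00001020499), was the only DEG among the subunits in the 6 comparisons. Its level was 61.5, 61.2 and 69.3 CPM in 37 °C replicates A to C, 68.1, 63.6, 84.2 and 101 after 1 h at 40 °C, 77.3, 79.6, 82.0 and 82.6 after 6 h at 40 °C and 90.5, 94.5, 89.3 and 114 at 42.5 °C. The 6 h and the 42.5 °C cultures lay wholly above the 3 controls, and the 1 h cultures overlapped them. The log2 fold change was 0.31 ± 0.12 after 1 h at 40 °C (adjusted p = 0.2368), 0.33 ± 0.06 after 6 h at 40 °C (adjusted p = 0.0004571) and 0.60 ± 0.08 at 42.5 °C (fold 1.51, adjusted p = 1.956e-05). In 37 °C replicate D it was at 132 CPM, the highest of the 16 libraries, and with all 4 controls the values were -0.008 after 6 h at 40 °C and 0.27 at 42.5 °C (adjusted p = 0.9892 and 0.4313). At 42.5 °C it stayed at an adjusted p under 0.05 under every other alternative run, but fell under 1.5-fold without 37 °C replicate A or B, without 42.5 °C replicate D, with the replicate block and under total-count scaling. In the RefSeq table, made on a different build from the authors', its span overlaps that of Gabpa, a transcription factor gene. Gabpa had a log2 fold change of 0.14 ± 0.05 at 42.5 °C (adjusted p = 0.02989). How reads in the overlap were counted is not stated, and the part it had in the value of Atp5j was not tested.

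Atp5mpl, a small membrane subunit of the Fo part, was called at 42.5 °C and not at 40 °C. It had 73.8, 67.8 and 74.0 CPM in the controls, 67.1 to 79.6 after 1 h at 40 °C, 70.7 to 74.8 after 6 h at 40 °C and 95.4, 92.7, 98.9 and 87.5 at 42.5 °C. The 42.5 °C cultures lay above all other libraries used. The log2 fold change was 0.37 ± 0.05 against 37 °C (adjusted p = 5.739e-05), 0.33 ± 0.06 against 40 °C for 1 h (adjusted p = 0.0003956) and 0.35 ± 0.05 against 40 °C for 6 h (adjusted p = 2.779e-05). With all 4 controls the first of these was 0.18 (adjusted p = 0.435). Atp5j2 and Atp5e, a membrane subunit and the small epsilon subunit of the head, had log2 fold changes of 0.27 ± 0.04 and 0.29 ± 0.08 (adjusted p = 0.0001288 and 0.0092), and Atp5g3, a c-ring gene, 0.04 ± 0.04 (adjusted p = 0.4737).

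**Figure D4:**
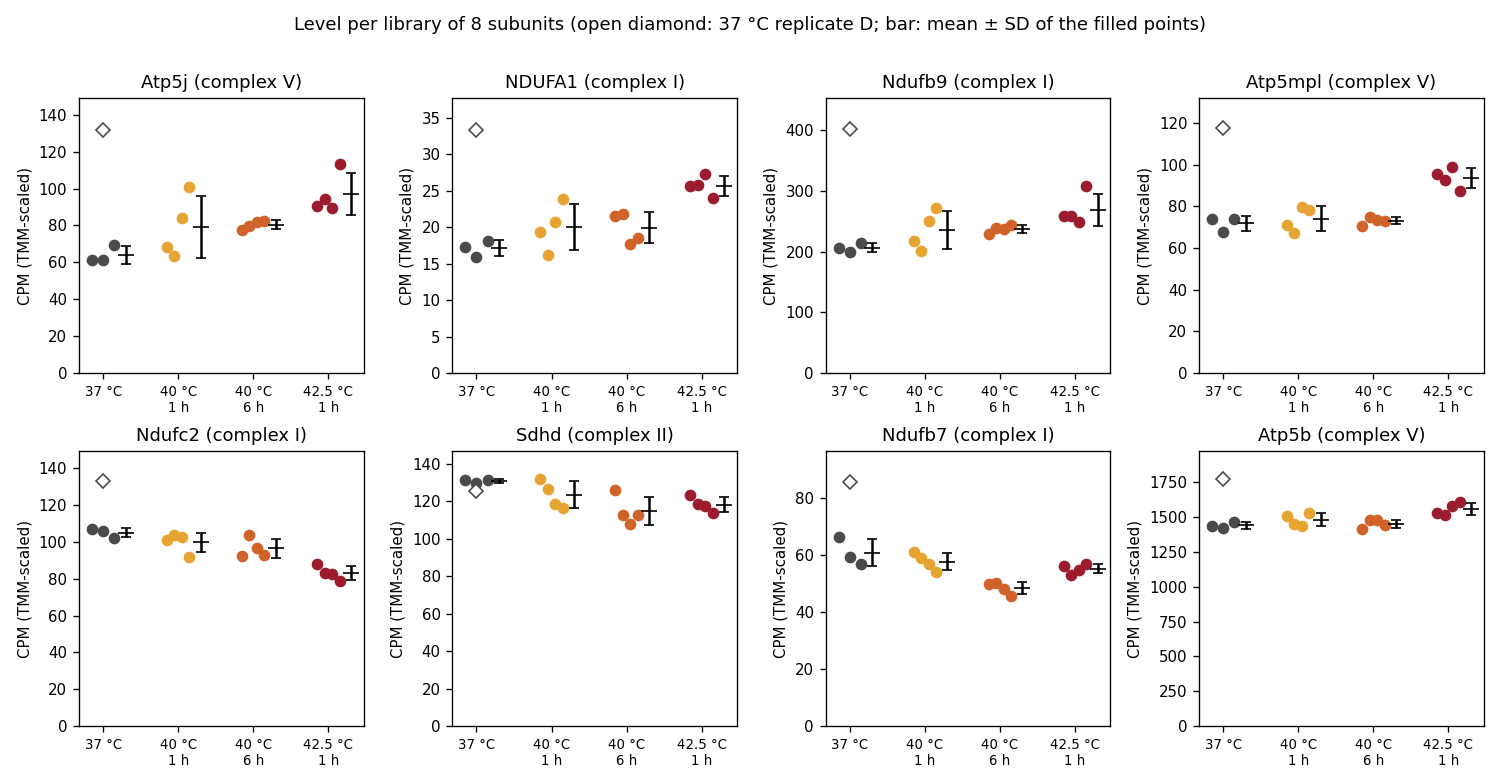
Level (CPM, TMM-scaled, axis from 0) of 8 subunits in every library, with filled points for the libraries used, bars for mean ± SD and an open diamond for 37 °C replicate D. Atp5j, NDUFA1, Ndufb9 and Atp5mpl are above replicates A to C at 42.5 °C, Ndufc2 and Sdhd are below them, Ndufb7 is lowest at 40 °C for 6 h (45.6 to 50.1 CPM), and in all but Sdhd the diamond lies above the filled points at 37 °C.

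The comparisons between heated groups use no 37 °C library. At 42.5 °C against 40 °C for 6 h, 28 of 62 subunits (45.2%) were higher and 2 (3.23%) lower, where 22.5% of all genes were higher and 24.5% lower, and none was a DEG (background 8.25%). The median log2 fold change was 0.12 (all genes 0.001), and 55 of 62 values were positive. Under total-count scaling 15 (24.2%) were higher and 3 (4.84%) lower, with a median of 0.071, where 15.1% of all genes were higher and 30.5% lower, with a median of -0.054. By complex, 12 of 32 were higher in complex I, 1 of 4 in II, 2 of 6 in III, 5 of 8 in IV and 8 of 12 in V, and the 2 lower, Ndufc2 (-0.22 ± 0.05, adjusted p = 0.002181) and NDUFB11 (-0.14 ± 0.05, adjusted p = 0.02443), are both of complex I. Atp5j, NDUFA1, Sdha and Cox4i1 were among those higher, with 0.27 ± 0.07 (adjusted p = 0.003134), 0.36 ± 0.08 (adjusted p = 0.002293), 0.17 ± 0.04 (adjusted p = 0.002436) and 0.15 ± 0.04 (adjusted p = 0.007093). Without 40 °C 6 h replicate A or without 42.5 °C replicate C, NDUFB11 was not called, and Cox4i1 was not called under total-count scaling (0.10, adjusted p = 0.063).

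At 42.5 °C against 40 °C, both for 1 h, 13 of 62 (21%) were higher and 2 (3.23%) lower, against 16.4% and 19.6% of all genes, with 0 DEGs (background 5.27%). The median was 0.075 (all genes 0.003). Under total-count scaling the split was 7 higher (11.3%) and 4 lower (6.45%), with a median of 0.019, where 9.28% of all genes were higher and 26.7% lower, with a median of -0.053. NDUFA1 was higher (0.35 ± 0.10, adjusted p = 0.01048), as were Cox7c (0.30 ± 0.05, adjusted p = 0.0002065), Uqcrc2 (0.23 ± 0.05, adjusted p = 0.001621) and Sdha (0.13 ± 0.04, adjusted p = 0.01156), though Sdha was not called under total-count scaling (0.07, adjusted p = 0.149). Ndufc2 fell by 0.27 ± 0.05 on the log2 scale (adjusted p = 0.0006552) and NDUFB11 by 0.15 ± 0.05 (adjusted p = 0.01754). The latter was not called without 40 °C 1 h replicate C or without 42.5 °C replicate C. Atp5j had 0.29 ± 0.11 (adjusted p = 0.05456). Its 40 °C 1 h replicate D, at 101 CPM, lay above 3 of the 4 cultures at 42.5 °C, and without that library Atp5j was called. It was called in 6 of 16 alternatives, the others being no filter, 1 fit over all groups, the replicate block and leaving out 42.5 °C replicate A or C (log2 fold change 0.20 to 0.43 over the 16, adjusted p = 0.002141 to 0.194).

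At 40 °C, 6 h against 1 h, no subunit was higher and 3 of 62 (4.84%) were lower, against 9.45% and 9.04% of all genes, and none was a DEG (background 1.28%). The 3 were Ndufb7 (-0.26 ± 0.06, adjusted p = 0.005939), Ndufs7, a core subunit with an iron-sulfur cluster (-0.28 ± 0.07, adjusted p = 0.00761), and Atp5g3 (-0.15 ± 0.04, adjusted p = 0.02442). Ndufs7 was at 43.0, 41.4, 48.3 and 47.9 CPM after 1 h and 35.7, 35.6, 39.7 and 37.3 after 6 h. Atp5g3 was at 354, 355, 346 and 368 CPM after 1 h and 325, 338, 303 and 314 after 6 h. Neither pair of groups overlapped. The median over the 62 was -0.045 (all genes 0.001), and 13 of 62 values were positive. With the replicate block, with 1 fit over all groups and by DESeq2 Atp5pb was lower as well.

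The comparisons of 40 °C for 6 h with 37 °C and of 42.5 °C with 40 °C for 1 h have no library in common. Across the 62 subunits their log2 fold changes correlated with Pearson's r of 0.514 and Spearman's rho of 0.518, and across 10401 genes with 0.074 and 0.07. This is a description across genes, which share libraries within each comparison and are not independent replicates. The comparisons are not fully independent either. In their reference groups, 37 °C and 40 °C for 1 h, libraries of the same replicate letter deviated together (mean r 0.159). What part this had in the correlation was not tested. NDUFA1 and Atp5j were positive in both comparisons and Ndufc2, Ndufb7 and Sdhd negative in both, but none of these genes was called in both. Ndufb7 and Sdhd each had -0.07 in the second (adjusted p = 0.314 and 0.262). Atp5mpl and Cox7c were positive in the second while having 0.02 and -0.05 in the first. The fold change at 42.5 °C against 37 °C had a Pearson's r of -0.116 with the mean level of the 62 subunits.

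**Figure D5:**
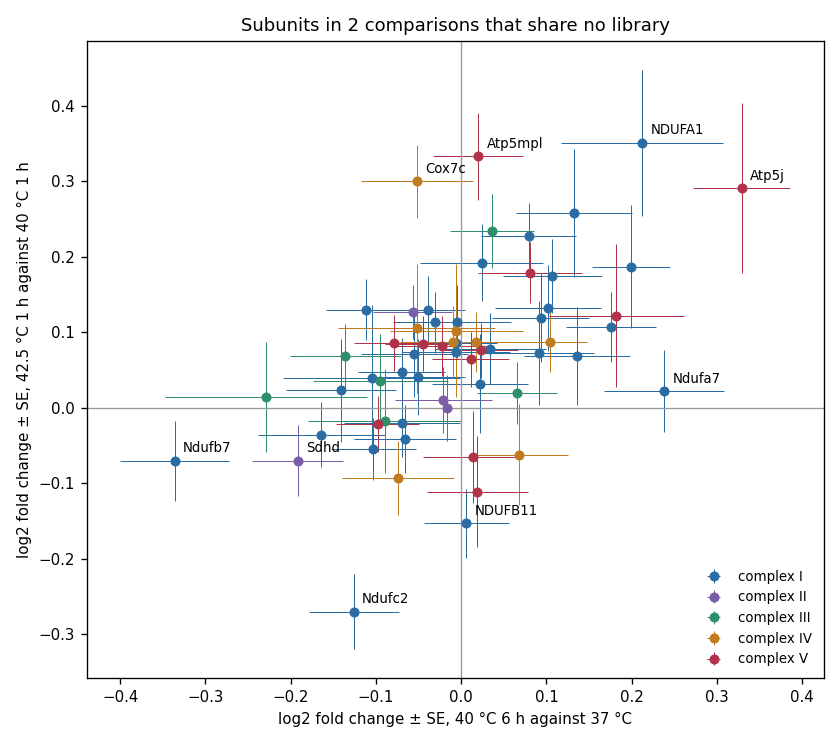
Log2 fold change ± SE of the 62 subunits at 40 °C for 6 h against 37 °C (x axis) and at 42.5 °C against 40 °C, both for 1 h (y axis), which have no library in common, coloured by complex. Pearson's r across the 62 points is 0.514, with NDUFA1 and Atp5j at the upper right and Ndufb7, Sdhd and Ndufc2 at the lower left.

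Other genes of the same pathway were set beside them from lists of names. Of 53 tested assembly factors, which build the complexes without being part of them, 6 (11.3%) were higher and 8 (15.1%) lower at 42.5 °C against 37 °C, where 20.8% and 22.3% of all genes were, with a median log2 fold change of 0.01 and 0 DEGs. At 40 °C for 6 h 7 (13.2%) were higher and 4 (7.55%) lower, where 14.7% and 14.8% of all genes were, and at 40 °C for 1 h none was called. The counts with all 4 controls were 0 higher and 4 lower at 42.5 °C, and 0 and 3 at 40 °C for 6 h. The 2 assembly factors that were DEGs in any of the 6 comparisons without 37 °C replicate D were higher at 42.5 °C than at 40 °C for 6 h. They were Sdhaf3 of complex II (0.68 ± 0.13, adjusted p = 0.0003424) and Coa6 of complex IV (0.59 ± 0.17, adjusted p = 0.01044). Of 5 genes of the pathway that the names missed (Ndufab1, Cyc1, Atpif1, Mtln and Dmac2l), Mtln, a small membrane peptide that promotes respiration, was a DEG at 42.5 °C, with -0.62 ± 0.17 (adjusted p = 0.009563), and -0.66 with all 4 controls (adjusted p = 0.02718). Atpif1, the inhibitor of ATP synthase, fell by 0.21 ± 0.08 on the log2 scale at 40 °C for 6 h (adjusted p = 0.04851), and had -0.07 ± 0.06 at 42.5 °C (adjusted p = 0.3574). Cyc1, cytochrome c1 of complex III, fell by 0.18 ± 0.04 after 6 h at 40 °C (adjusted p = 0.006876). Neither Atpif1 nor Cyc1 was called at 6 h with all 4 controls (-0.35 and -0.26, adjusted p = 0.1171 and 0.05799).

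The 13 subunits encoded by mitochondrial DNA were higher at 42.5 °C in 13 of 13 cases, 9 of them DEGs, with log2 fold changes from 0.43 (COX2) to 0.98 (ATP8), where 20.8% of all genes were higher and 7.51% were DEGs either way. Set against all 4 controls, 7 of 13 were higher at 42.5 °C, 4 of them DEGs, and 2 after 6 h at 40 °C. Their summed level was 24740 ± 4649 CPM at 37 °C (SD, n = 3), 27430 ± 3534 after 1 h at 40 °C, 31130 ± 3774 after 6 h at 40 °C and 38160 ± 957 at 42.5 °C (n = 4 each), and none of the 13 was called higher after 1 h at 40 °C, while 9 were after 6 h. In 37 °C replicate D the sum was 34064 CPM, above 3 of the 4 cultures at 40 °C for 6 h and below all 4 at 42.5 °C. The ratio of 42.5 °C to 37 °C was 1.54 for this sum and 1.09 for that of the nuclear-encoded subunits. These RNAs are made in the mitochondrion, and how the library preparation and the counting treated them is not stated beyond the kit, so the sums are values of these libraries only.

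By name, 48 of the 70 subunits were found in the RefSeq gene table, and 15 of them overlap another gene there. They include Sdha with Ccdc127, whose log2 fold change at 42.5 °C was -0.27 ± 0.08 (adjusted p = 0.01164), and Ndufs3 with Kbtbd4, at -0.47 ± 0.16 (adjusted p = 0.0221). In both pairs the neighbour was lower where the subunit was higher. Gabpa, by contrast, was higher together with Atp5j (0.14 ± 0.05, adjusted p = 0.02989). Hif1an, which overlaps Ndufb8, had -0.58 ± 0.08 (adjusted p = 4.7e-05), and Ndufb8 was not called. Whether the counting used strand is not stated, so the reads of overlapping genes cannot be told apart, and the values of these subunits are uncertain to that extent.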

How the data were processed

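RNA of CHO cells was sequenced as paired reads of 150 bp (TruSeq library) in 16 libraries. The authors made the base calls with bcl2fastq, trimmed and mapped the reads to the Chinese hamster genome CHOK1GS_HDv1, counted them with CLC Genomics Workbench and deposited read counts per gene, which are whole numbers without normalization. The annotation, strand and treatment of multiply mapped reads are not given in the sources used here. Of the 20824 genes, 4423 are listed by identifier only and were not searched.

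The genes, gene lists and tests were chosen with earlier results of these data known. Counts were fitted over all genes with edgeR 4.0.16 in R 4.3.3 (filterByExpr, TMM, quasi-likelihood test, only the libraries of the 2 groups, 6 comparisons), without 37 °C replicate D. That this is the library the study left out was found by matching its printed counts to the deposited ones, which were identical in 15 libraries. The biological coefficient of variation was 4.87% to 5.61% and the median SE of the subunits' log2 fold changes 0.048 to 0.058. The fit was tested on simulated data. No pair of libraries of a group agreed within sampling noise (chi-square per degree of freedom at least 2.53). Genes named are DEGs, the 5 largest rises and falls against 37 °C among called genes with groups that do not overlap, fixed core subunits and isoform pairs, and others named for their values in the text. For those rises and falls the lack of overlap was part of the choice.

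Same-letter libraries deviated together in the comparison of 40 °C for 1 h with 37 °C, where every pair had a correlation over 0.1 (mean r 0.159) and 6 of 6 libraries correlated best with their own letter. Its blocked result is given beside it. The letters come from the sample labels. In the other comparisons the mean r was 0.016 to 0.066, but single pairs reached 0.175 (replicate D) and 0.128 (replicate A) for 6 h against 1 h at 40 °C.

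Alternatives were RLE and upper-quartile scaling, total counts alone, DESeq2 1.42.0, no filter, at least 10 counts in every library, 1 fit over all groups, the replicate block, all 4 controls and each library left out. The counts of the other gene lists with all 4 controls were added after seeing the data. A planned search of promoters for motifs was not run here, since no promoter sequences were at hand. p-values measure the spread between cultures of 1 line. One tested subunit is counted in the totals but not reported here by itself.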

Additional observations from a re-analysis of the deposited data

Results flagged for a closer look

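Replicate D at 37 °C was far from the other controls in 16 of the 29 sets of 4 control libraries examined, in each of which the gap from the extreme library to its nearest neighbour was divided by the whole range and set against Dixon's 95% critical value. Chance flags about 1 in 20 such sets when they are independent. These 29 are not, since all are read from the same 4 libraries and the sums hold the single subunits. The 16 flags therefore count the shift of 1 library many times and cannot be set against chance. That the study had left this library out was also known beforehand. Among the 87 sets of the heated groups 1 was flagged. For the summed level of all subunits the value was 0.925, at 12864.7 CPM against 9469.7 to 9725 in replicates A to C, and since that library enters no main comparison its sum of 12864.7 CPM was also noted as a signal in data left aside. For complex I it was 0.917 (4238.8 CPM against 2965.2 to 3070.8), for complex IV 0.897 (1685.2 against 1112.8 to 1171.5) and for complex V 0.975 (4998.1 against 3706.7 to 3738.5). Among single subunits it was 0.885 for Atp5j, 0.923 for Ndufb9, 0.833 for Ndufv2, 0.877 for NDUFA1, 0.874 for Atp5mpl, 0.914 for Cox6b1, 0.921 for NDUFB11, 0.85 for Ndufc2, 0.971 for Cox5a, 0.876 for Atp5b, 0.904 for Cox4i1 and 0.89 for Atp5a1, each with replicate D highest. Sdhd was at 125.3 CPM in that library, below all 3 others. Why this library differs was not tested.

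The one among the heated groups was Ndufb9 in 42.5 °C replicate D, with a value of 0.837 at 308.6 CPM against 249.6 to 259.2 in the other cultures at 42.5 °C. Atp5j also had its highest value of that group in replicate D. Both genes were highest in replicate D in every other group as well, and whether the letter played a part was not tested.

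Between 6 h and 1 h at 40 °C 3 subunits differed by edgeR's quasi-likelihood test, which used the heated groups alone. Against 37 °C, Ndufs7 and Atp5g3 were called at neither time and Ndufb7 after 6 h only. The log2 fold change of 6 h against 1 h was -0.283 for Ndufs7 (adjusted p = 0.00761), -0.255 for Ndufb7 (adjusted p = 0.005939) and -0.153 for Atp5g3 (adjusted p = 0.02442), and in each all 4 cultures at 6 h lay below all 4 at 1 h.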

How the results depend on the processing

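Of 2112 recomputed values for the subunits named by rule, 2001 kept their side of the threshold, 62 lost the call and 46 gained one. Only results called in the main fit could lose a call, so these totals do not give the share of calls kept. Values that stayed uncalled were counted as kept even when their sign changed. An example is Ndufb9 at 40 °C for 1 h against 37 °C (-0.115 to 0.258). The other 3 lost the call and reversed, all 3 with all 4 controls at 40 °C for 6 h against 37 °C (log2 fold change -0.008 for Atp5j, -0.104 for Ndufb9 and -0.002 for Ndufv2). The cause was not tested.

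With all 4 controls, 0 subunits were higher and 1 lower at 40 °C for 6 h (median log2 fold change -0.151) and 0 higher, 1 lower and 0 DEGs at 42.5 °C against 37 °C (median -0.015), and the median at 40 °C for 1 h was -0.094. Under total-count scaling, 17 were higher, 8 lower and 0 DEGs at 42.5 °C against 37 °C (median 0.034), 7 higher and 4 lower against 40 °C for 1 h (0.019) and 15 higher against 40 °C for 6 h (0.071), the median at 40 °C for 1 h was 0.028, and the summed level was 9792 CPM at 37 °C and 10080 at 42.5 °C. Without the filter, 1 subunit was higher at 40 °C for 1 h (Atp5j) and 4 were lower at 40 °C for 6 h (with Uqcr11 and Ndufb2 added). Of all genes, 1.53% were then higher at 40 °C for 1 h and 12.3% lower at 40 °C for 6 h.

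With the replicate block, 2 subunits were higher at 40 °C for 1 h. In the other comparisons, where the letters were not taken as pairs, it changed the subunits' counts to 4 higher and 3 lower at 40 °C for 6 h against 37 °C, 34 and 4 at 42.5 °C against 37 °C, 16 and 2 at 42.5 °C against 40 °C for 1 h, 30 and 2 against 40 °C for 6 h, and 0 and 4 for 6 h against 1 h at 40 °C. In the same order, the subunits' shares called higher were 6.45%, 54.8%, 25.8%, 48.4% and 0%. Of all genes, the blocked fits called 14%, 21.7%, 17.9%, 23.3% and 11% higher. They called 14.4%, 23.2%, 20.8%, 25.1% and 11% lower. In these comparisons 1 to 3 of the 6 or 8 libraries correlated best with their own letter.

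Leaving out 1 library at a time gave, at 40 °C for 6 h against 37 °C, 3 to 5 higher, 1 (without 37 °C replicate A) to 4 lower (without 40 °C 6 h replicate A or B) and a median of -0.033 to 0.011. At 42.5 °C against 37 °C it gave 21 to 29 higher, 2 to 6 lower (6 without 37 °C replicate C), 0 to 2 DEGs (0 without 37 °C replicate A or B, 2 without C) and a median of 0.104 to 0.128. At 40 °C for 1 h the counts stayed at 0 and the median was 0.028 to 0.062. At 40 °C, 6 h against 1 h gave 2 to 4 lower and a median of -0.057 to -0.032. At 42.5 °C against 40 °C for 1 h it gave 9 to 18 higher, 1 to 2 lower and 0.067 to 0.087, and against 40 °C for 6 h 20 to 28 higher, 1 to 2 lower and 0.104 to 0.14. After 6 h at 40 °C against 37 °C, 10.2% to 16.1% of all genes were higher and 9.67% to 16.1% lower. At 42.5 °C against 37 °C these shares were 15.5% to 21.1% and 18% to 21.7%. For 42.5 °C against 40 °C for 1 h they were 13% to 16.4% and 15.9% to 19.4%. For 42.5 °C against 40 °C for 6 h they were 19.2% to 21.9% and 21.5% to 23.9%. For 6 h against 1 h at 40 °C 5.95% to 9.54% were lower. At 40 °C for 1 h against 37 °C at most 1.71% were higher and 0.926% lower. SEs of about 0.05 limit what these depths show: changes of a few percent could not be called.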
